A study of Mus musculus with 27 samples.

Results

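The genes described here are the chemokine ligand genes, taken as every row of the deposited gene table whose symbol begins with Ccl, Cxcl, Xcl or Cx3cl followed by a number and at most 1 letter. This rule found 45 of the 54532 rows of the table: 30 Ccl, 13 Cxcl, 1 Xcl and 1 Cx3cl row. Because 5 symbols stand on several rows, 11 rows in all, the 45 rows carry 39 distinct symbols, and 7 rows lie on unplaced scaffolds of the assembly. A scaffold row is named below by its symbol and its scaffold. Reads were counted in 42 rows. The other 3, Cxcl15, Ccl21b on chromosome 4 and the Ccl19 row of scaffold JH584294.1, had no read in any library. The study sequenced RNA from the dorsal skin of C3H mice in 3 groups of 9 libraries. Blank skin had no treatment. Vehicle skin was given the solvent of TDM10842, and TDM skin was given TDM10842, which the study's design text describes as a topical thyroid hormone receptor agonist. Both were applied in 2 doses of 60 µL, at 0 and 24 h. The solvent, the dose of the compound, the time of collection, and the age and sex of the mice were not given in the sources used here. No source used here states that each library is 1 mouse. The p-values test differences between groups against the spread between libraries. If several libraries came from 1 mouse, that spread would be technical in part and would understate the variation between mice.

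Chemokines are small secreted proteins that guide the migration of leukocytes through G protein-coupled receptors. They are classed by the spacing of their first cysteines into CC (Ccl), CXC (Cxcl), C (Xcl) and CX3C (Cx3cl) ligands. Some are made steadily, such as Ccl27a in keratinocytes and Cxcl12 in stroma, and others are induced by cytokines, such as the interferon-gamma targets Cxcl9, Cxcl10 and Cxcl11. Atypical receptors bind chemokines without classical signalling and clear them.

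The libraries held 15412332 to 17599066 counted reads each. Chemokine ligand reads made up 0.0905% to 0.167% of them in Blank (median 0.10%), 0.0608% to 0.156% in Vehicle (median 0.0829%) and 0.0493% to 0.163% in TDM (median 0.111%), so the 3 groups overlapped over most of their range. All 8 markers of basal keratinocytes and all 9 markers of fibroblasts passed the count filter, although the extraction text of the labels speaks of retinas. Transcripts typical of intestine were high in the library Vehicle 3, where the mucin gene Muc2 was at 37.0 CPM (counts scaled to library size). Muc2 was also at 23.2 CPM in Blank 8, 18.5 CPM in Vehicle 4 and 9.31 CPM in Vehicle 6, and at most 2.51 CPM in the other libraries. The libraries Vehicle 7 and Vehicle 8 had 17.4 and 42.8 CPM of Shh, a gene of growing hair follicles, against at most 1.04 CPM in the other Vehicle libraries. In TDM all libraries had 6.76 to 57.0 CPM of Shh, so by this gene Vehicle 7 and Vehicle 8 lay within the TDM range. Blank 4 had 9.93 CPM and the other Blank libraries at most 2.20 CPM. Of the 22 tested skeletal muscle markers 21 were lower in TDM than in Vehicle, 1 was lower in TDM than in Blank and 0 were called in Vehicle against Blank. The mean of the 22 was 10.52 ± 0.43 on the log2 CPM scale in Blank, 10.92 ± 0.60 in Vehicle and 9.98 ± 0.49 in TDM (SD, n = 9 each). In bulk tissue, fewer cells of a type and less RNA per cell cannot be told apart.

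Ccl8 was by far the most abundant chemokine ligand transcript per length of its gene model. Its mean over the 27 libraries was 491.8 FPKM (fragments scaled to gene length and library size), against 66.7 FPKM for the next gene, Ccl6. The order continued with Ccl21a on scaffold JH584294.1 at 43.9 FPKM, Cxcl14 at 39.3 FPKM, Ccl9 at 31.0 FPKM, Cxcl12 at 29.4 FPKM, Ccl27a at 22.6 FPKM, Ccl11 at 21.6 FPKM, Ccl7 at 17.3 FPKM and Ccl12 at 10.3 FPKM. These were the 10 genes with a mean of at least 10 FPKM, and 22 had at least 1 FPKM. Among these 10, the ranges of neighbours in the order overlapped. In reads, Ccl8 with 113968 and Cxcl12 with 108714 together held 47.9% of the 465087 chemokine ligand reads. Of the 42 genes with reads, 29 had a read in each of the 27 libraries. The 30 that passed the count filter were tested in 1 fit over all 27 libraries, and 12 were not.

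**Figure D1:**
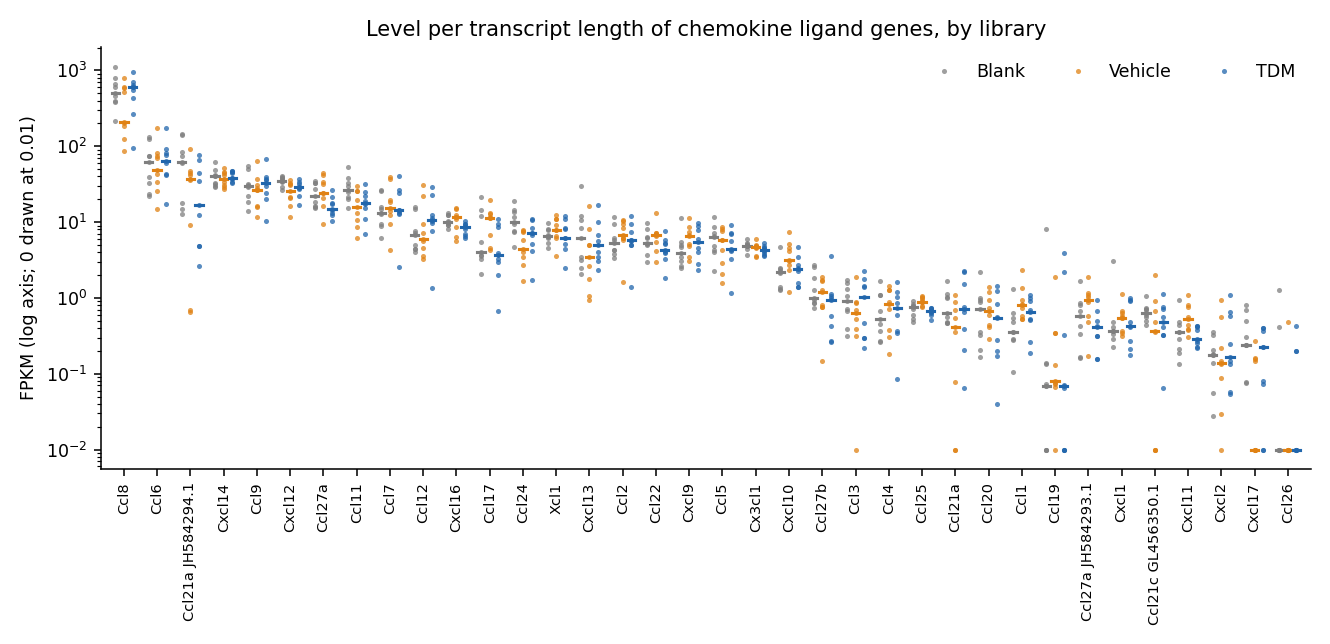
FPKM on a log axis of the 36 chemokine ligand genes with a mean of at least 0.1 FPKM, ordered by that mean; points are libraries, horizontal bars are group medians, and a value of 0 is drawn at 0.01. Ccl8 has the highest median in each group.

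Several promoters are printed here because their genes are the ones the results turn on: Ccl25 and Ccl27a, which were lower in TDM than in Vehicle skin, and 2 pairs of neighbours whose levels went together, Ccl6 with Ccl9 and Cxcl9 with Cxcl10. The sequences are from RefSeq on GRCm38.p6 and run from 250 bases before to 50 bases after an annotated start, 5′ to 3′ on the strand of the gene. Capitals mark matches, on either strand, to AGGTCA (the core bound by thyroid hormone and other nuclear receptors), the core of the interferon-stimulated response element, TTCNNNGAA (the gamma-interferon activation site) and the NF-kappaB site, and, on the gene's strand, to TATAAA.
Ccl25, chr8:4349338-4349637, plus strand: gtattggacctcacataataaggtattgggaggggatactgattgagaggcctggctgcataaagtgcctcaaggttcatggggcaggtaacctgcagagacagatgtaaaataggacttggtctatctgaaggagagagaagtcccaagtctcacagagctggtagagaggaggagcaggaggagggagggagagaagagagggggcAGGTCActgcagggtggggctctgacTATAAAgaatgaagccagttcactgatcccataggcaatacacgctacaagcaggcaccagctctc
Ccl27a, chr4:41770163-41770462, minus strand: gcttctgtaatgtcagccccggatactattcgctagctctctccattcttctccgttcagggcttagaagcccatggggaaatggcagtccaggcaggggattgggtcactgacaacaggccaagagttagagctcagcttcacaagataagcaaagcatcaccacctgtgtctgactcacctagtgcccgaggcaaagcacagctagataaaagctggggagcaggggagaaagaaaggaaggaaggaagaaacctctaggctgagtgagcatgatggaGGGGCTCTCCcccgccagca
Ccl6, chr11:83593038-83593337, minus strand: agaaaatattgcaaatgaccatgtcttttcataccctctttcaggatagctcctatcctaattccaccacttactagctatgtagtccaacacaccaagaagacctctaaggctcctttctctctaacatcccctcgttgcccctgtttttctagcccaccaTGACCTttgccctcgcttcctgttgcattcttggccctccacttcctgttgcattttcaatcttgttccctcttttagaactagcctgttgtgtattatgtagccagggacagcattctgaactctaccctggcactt
Ccl9, chr11:83578587-83578886, minus strand: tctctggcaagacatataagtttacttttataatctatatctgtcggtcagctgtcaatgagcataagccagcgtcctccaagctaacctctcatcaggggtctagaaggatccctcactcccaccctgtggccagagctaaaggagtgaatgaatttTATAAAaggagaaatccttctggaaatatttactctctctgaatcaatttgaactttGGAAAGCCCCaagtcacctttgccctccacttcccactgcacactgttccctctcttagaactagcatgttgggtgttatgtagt
Cxcl9, chr5:92328030-92328329, minus strand: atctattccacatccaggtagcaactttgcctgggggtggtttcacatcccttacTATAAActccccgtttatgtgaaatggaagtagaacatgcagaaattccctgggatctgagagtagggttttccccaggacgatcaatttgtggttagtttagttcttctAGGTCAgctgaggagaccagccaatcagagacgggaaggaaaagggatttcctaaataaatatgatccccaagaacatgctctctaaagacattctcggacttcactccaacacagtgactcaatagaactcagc
Cxcl10, chr5:92348840-92349139, minus strand: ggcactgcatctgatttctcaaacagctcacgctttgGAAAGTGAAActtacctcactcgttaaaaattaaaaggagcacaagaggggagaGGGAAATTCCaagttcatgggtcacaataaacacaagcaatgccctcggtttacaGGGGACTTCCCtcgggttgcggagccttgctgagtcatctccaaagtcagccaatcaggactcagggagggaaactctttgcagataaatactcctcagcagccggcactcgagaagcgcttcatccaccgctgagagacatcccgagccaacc

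The Ccl25 window printed here held AGGTCA beginning 42 bases before the start and TATAAA beginning 16 bases before it. It lies at a downstream start, and the other Ccl25 window, at the deposited start of the gene (chr8:4324960-4325259), held no match. Ccl27a has 3 windows: the one printed, one with AGGTCA farther before its start and one with no match. No window was matched for Cxcl11 or Ccl24. The Ccl6 and Cxcl9 windows held an AGGTCA match at 88 and 85 bases before the start. The Cxcl10 window held the interferon-stimulated core 213 bases before the start and NF-kappaB matches at 159, 104 and 103 bases before it, the last 2 of which overlap. Promoters were matched for 27 of the 39 symbols, as 33 windows, some of which overlap. AGGTCA was in 12 of these 33 windows (36.4%) and in 16.3% of all 32851 windows of 300 bases. The NF-kappaB site was in 24.2% of the chemokine windows and 8.46% of all, the interferon-stimulated core in 9.09% and 3.44%, TTCNNNGAA in 6.06% and 8.3%, and TATAAA in 27.3% and 8.32%. A match describes these letters and is not evidence that a factor binds there.

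Near-identical copies limit what can be said of the Ccl21 and Ccl27 genes. The coding sequences of Ccl21a and Ccl21b on chromosome 4 differed at 2 of 399 bases, and those of Ccl27a and Ccl27b at 3 of 360 bases. The stretches below, from GENCODE M21 transcripts, show 40 bases around the first difference of each pair, with the differing base in capitals (coding bases 64 to 103 of the Ccl21 genes and 157 to 196 of the Ccl27 genes).
Ccl21a: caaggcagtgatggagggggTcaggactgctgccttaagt
Ccl21b: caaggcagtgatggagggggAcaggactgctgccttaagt
Ccl27a: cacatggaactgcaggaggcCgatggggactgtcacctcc
Ccl27b: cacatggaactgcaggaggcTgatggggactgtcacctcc

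Reads of such stretches could be assigned to either copy, so the split between the copies is uncertain. In these files the Ccl21a row of scaffold JH584294.1 had 8015 reads, Ccl21a on chromosome 4 had 298 and Ccl21b on chromosome 4 had 0. Ccl27a on chromosome 4 had 24051 reads, Ccl27b had 230 and the Ccl27a row of scaffold JH584293.1 had 211.

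The comparison of TDM with Vehicle asks what the compound changed beyond its solvent. Of the 30 tested chemokine ligand genes, 3 were lower in TDM skin and 0 were higher at an adjusted p under 0.05 (edgeR quasi-likelihood test, Benjamini-Hochberg adjustment over 17232 genes). That is 10% of them, against 23.7% of all tested genes called in either direction and 11.7% called lower. The 3 were Ccl25 at chr8:4325210-4360020 (plus strand, ENSMUSG00000023235), Ccl27a at chr4:41769467-41774247 (minus strand, ENSMUSG00000073888) and Cxcl11 at chr5:92359544-92365485 (minus strand, ENSMUSG00000060183), in GRCm38. At an unadjusted p under 0.05 there were 7, against 37.3% of all genes. The median log2 fold change of the 30 was -0.08, and that of all tested genes was 0.01.

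Ccl25, the ligand of Ccr9, is best known from thymus and small intestine. Its level was 5.79 CPM in the lowest Vehicle library, 6.69 CPM at the median and 7.84 CPM in the highest, and in TDM it was 3.83, 5.01 and 5.56 CPM. The TDM libraries all lay below the Vehicle libraries, a separation without overlap that 0.575% of all tested genes showed. The log2 fold change was -0.46 ± 0.11 (SE; adjusted p = 0.00636), from group means of 6.81 ± 0.68 CPM in Vehicle and 4.96 ± 0.54 CPM in TDM (SD, n = 9 each). Blank skin ran from 3.58 to 6.98 CPM with a median of 5.70 CPM, which overlapped both other groups. Ccl25 was a weakly expressed gene, with 59 to 129 reads per library. It overlaps the oppositely oriented gene Elavl1 by 204 bases, 2.74% of its exons, and the library kit does not mark strand. Elavl1 itself had a log2 fold change of 0.18 (adjusted p = 0.164). Markers of intestinal epithelium, a tissue that makes Ccl25, were also lower: 6 of 7 tested were called lower in TDM than in Vehicle, with a median log2 fold change of -3.82, among them Muc2 (-3.82), Dmbt1 (-4.74), Lypd8 (-4.37) and Slc12a1 (-3.91), which is better known as a kidney transporter. Their summed level was 10.4 to 220.4 CPM in Vehicle, 8.004 to 16.1 CPM in TDM and 14.8 to 56.3 CPM in Blank. Without Vehicle 3, the library with the highest Muc2, the Ccl25 log2 fold change was -0.46 (adjusted p = 0.0110). Otherwise their part in the Ccl25 result was not tested.

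Ccl27a, a keratinocyte chemokine that draws skin-homing T cells through Ccr10, was the most abundant of the 3. Its level was 22.5, 57.9 and 104 CPM in Vehicle (lowest, median and highest library) and 24.6, 35.7 and 63.6 CPM in TDM. The groups overlapped, and all TDM libraries lay within the Vehicle range. The log2 fold change was -0.72 ± 0.24 (SE; adjusted p = 0.0322). Blank libraries ran from 36.6 to 84.1 CPM with a median of 52.8 CPM. The scaffold copy on JH584293.1 had a log2 fold change of -1.05 and did not pass (adjusted p = 0.0627). Markers of basal keratinocytes were also lower: 7 of 8 were called lower in TDM than in Vehicle, with a median log2 fold change of -0.62. Among them were the keratin genes Krt14 (-0.71) and Krt5 (-0.65). The summed level of the 8 was 5101 to 14159 CPM in Vehicle, 5035 to 7698 CPM in TDM and 5032 to 9053 CPM in Blank. Other keratinocyte markers went the other way. Of 8 suprabasal markers 3 were higher and 0 lower in TDM than in Vehicle (median log2 fold change 1.05). Of 8 hair follicle keratinocyte markers 5 were higher and 0 lower (median 1.97). The part of these markers in the Ccl27a result was not tested.

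Cxcl11 is an interferon-induced ligand of Cxcr3, and the deposited table gives its biotype as polymorphic pseudogene. Its level was 1.19, 2.0 and 4.15 CPM in Vehicle and 0.863, 1.10 and 1.65 CPM in TDM (lowest, median and highest library). The TDM values were narrow and low and the Vehicle values reached higher, with an overlap between 1.19 and 1.65 CPM. The log2 fold change was -0.84 ± 0.29 (SE; adjusted p = 0.0374). Counts were small, 9 to 69 reads per library over the 3 groups. Cxcl11 shares 1582 bases, 41.7% of its exon bases, with Gm2673 on the other strand, a gene with 0 reads. Blank ran from 0.519 to 3.59 CPM with a median of 1.35 CPM. The other interferon-induced Cxcr3 ligands did not pass: Cxcl10 had a log2 fold change of -0.58 (adjusted p = 0.143) and Cxcl9 of -0.14 (adjusted p = 0.768).

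The 3 calls differed in how far they rested on single libraries. Ccl25 passed in all 27 fits that each left out 1 library. Ccl27a passed in 20 of 27 and was lost without Vehicle 2, Vehicle 3, TDM 2, TDM 4, TDM 6, TDM 8 or TDM 9, where its log2 fold change was -0.70 to -0.61 and its adjusted p reached 0.0734. Cxcl11 passed in 19 of 27 and was lost without Vehicle 2, Vehicle 4, Vehicle 6, TDM 1, TDM 4, TDM 5, TDM 7 or TDM 9, where its log2 fold change was -0.82 to -0.68 and its adjusted p reached 0.0892. Without a filter on low counts Ccl27a (-0.74, adjusted p = 0.0642) and Cxcl11 (-0.86, adjusted p = 0.0535) were lost. In limma fits of the deposited FPKM, Ccl27a was lost as well (-0.62, adjusted p = 0.0555, with a pseudocount of 1, and -0.65, adjusted p = 0.0570, with 0.1), and Ccl17 was called in its place. With the muscle level as a covariate none of the 3 passed: Ccl25 had a log2 fold change of -0.35 (adjusted p = 0.209), Ccl27a of -0.35 (adjusted p = 0.62) and Cxcl11 of -1.09 (adjusted p = 0.151). In that fit 223 genes of all tested were called instead of 4090, and 1 chemokine ligand, Ccl22, was lower. Of the 22 tested muscle markers, 21 were lower in TDM than in Vehicle, and the summed level of the muscle list was 31909 to 110102 CPM in Vehicle and 22460 to 57135 CPM in TDM. The covariate thus differed between the groups compared. Here and below, fits with it cannot tell a change with muscle level from a change with treatment. Without Vehicle 7 and Vehicle 8, a choice made after seeing their Shh level, 8 of 33 tested chemokine ligand genes were lower. In that fit 5623 genes of all, 32.2%, were called.

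**Figure D2:**
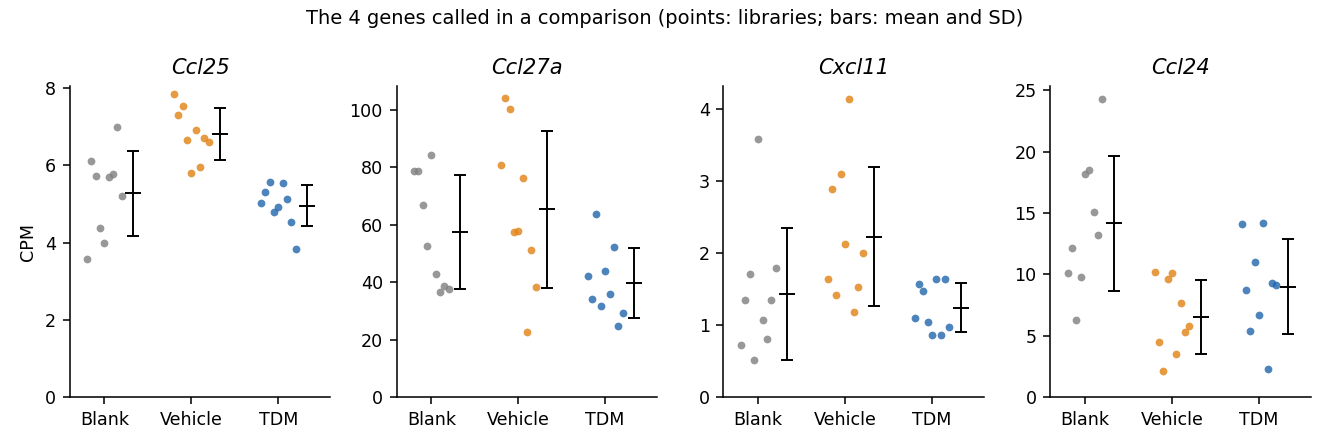
CPM in each library of Ccl25, Ccl27a, Cxcl11 and Ccl24 in the 3 groups, on axes that start at 0; points are libraries and the black bar is the mean and SD of 9. All TDM points of Ccl25 lie below all Vehicle points, while the groups of the other 3 genes overlap.

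The group known as monocyte chemoattractant proteins, which includes the most abundant gene, did not pass in TDM against Vehicle. Ccl8, also called monocyte chemoattractant protein 2, was at 43.6, 105 and 417 CPM in Vehicle and 49.4, 310.4 and 487 CPM in TDM (lowest, median and highest library). Both groups spanned most of the same range although the TDM median was higher, and the log2 fold change was 0.55 ± 0.40 (SE; adjusted p = 0.329). With the muscle covariate its direction turned (-0.41, adjusted p = 0.731). In Blank it was 109.7, 258 and 568 CPM. Ccl2, Ccl7 and Ccl12, Ccr2 ligands of the same cluster on chromosome 11, had log2 fold changes of -0.18, -0.07 and 0.33 (adjusted p = 0.715, 0.916 and 0.629).

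Ccl6 and Ccl9 are CC chemokines of rodents made by myeloid cells. Ccl6 was at 26.9, 88.6 and 321 CPM in Vehicle and 32.0, 117 and 314 CPM in TDM, with a log2 fold change of 0.19 ± 0.42 (SE; adjusted p = 0.773). Ccl9 was at 35.3, 83.2 and 197 CPM in Vehicle and 31.9, 100.2 and 208 CPM in TDM, with a log2 fold change of 0.22 ± 0.31 (SE; adjusted p = 0.643). Both groups covered nearly the same range for both genes, and with the muscle covariate both estimates turned to -0.36 and -0.31 (adjusted p = 0.815 and 0.764). That of Ccl6 was also -0.09 without TDM 8. The Blank libraries ran from 39.7 to 237 CPM for Ccl6 and from 42.4 to 167 CPM for Ccl9. Of the 12 macrophage and monocyte markers 0 were called, with a median log2 fold change of 0.60.

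Among the steadily made stromal and epithelial ligands, Cxcl12, the Cxcr4 ligand, was at 99.4, 212 and 293 CPM in Vehicle and 142, 243 and 308 CPM in TDM, with a log2 fold change of 0.18 ± 0.16 (SE; adjusted p = 0.455), which turned to -0.19 with the muscle covariate (adjusted p = 0.678). Cxcl14, an epithelial chemokine, had narrow ranges of 50.6 to 93.2 CPM in Vehicle and 60.0 to 87.5 CPM in TDM, with medians of 67.5 and 70.8 CPM and a log2 fold change of 0.12 ± 0.14 (SE; adjusted p = 0.571). The interval of the Cxcl14 log2 fold change ran from -0.17 to 0.40 (95%), which bounds any difference. Ccl21a, a Ccr7 ligand, varied widely between libraries on its scaffold row. It was at 0.268, 14.99 and 37.0 CPM in Vehicle and 1.09, 6.62 and 31.7 CPM in TDM there, with a log2 fold change of -0.22 ± 0.68 (SE; adjusted p = 0.838). That estimate turned to 0.15 with voom and 0.12 without Vehicle 7. The Ccl21a row on chromosome 4 had the opposite sign, 1.08, and did not pass (adjusted p = 0.146). Cxcl16, a transmembrane chemokine that binds Cxcr6, had -0.38 (adjusted p = 0.0699), and shares 18.3% of its exon bases with Zmynd15 on the other strand. Cx3cl1, the other transmembrane ligand, had -0.08 with a 95% interval of -0.28 to 0.12.

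The Ccr4 ligands Ccl17 and Ccl22, made by dendritic cells, had log2 fold changes of -1.06 (adjusted p = 0.0865) and -0.54 (adjusted p = 0.11). Ccl17 had the lowest estimate of the 30, and its libraries ran from 2.25 to 9.85 CPM in Vehicle and from 0.347 to 5.64 CPM in TDM. Of other leukocyte attractants, Ccl5 had -0.01 (adjusted p = 0.987), Ccl3 had 0.57 (adjusted p = 0.404) and Ccl4 had -0.09 (adjusted p = 0.902). The eosinophil attractants Ccl11 and Ccl24 had 0.09 (adjusted p = 0.838) and 0.46 (adjusted p = 0.277). Cxcl1, a neutrophil attractant, had -0.08 (adjusted p = 0.92), and Ccl20, the Ccr6 ligand, had -0.33 (adjusted p = 0.654). The B cell attractant Cxcl13 had 0.38 (adjusted p = 0.635), the Ccr8 ligand Ccl1 had -0.56 (adjusted p = 0.267) and Xcl1, the Xcr1 ligand, had -0.23 (adjusted p = 0.507).

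**Figure D3:**
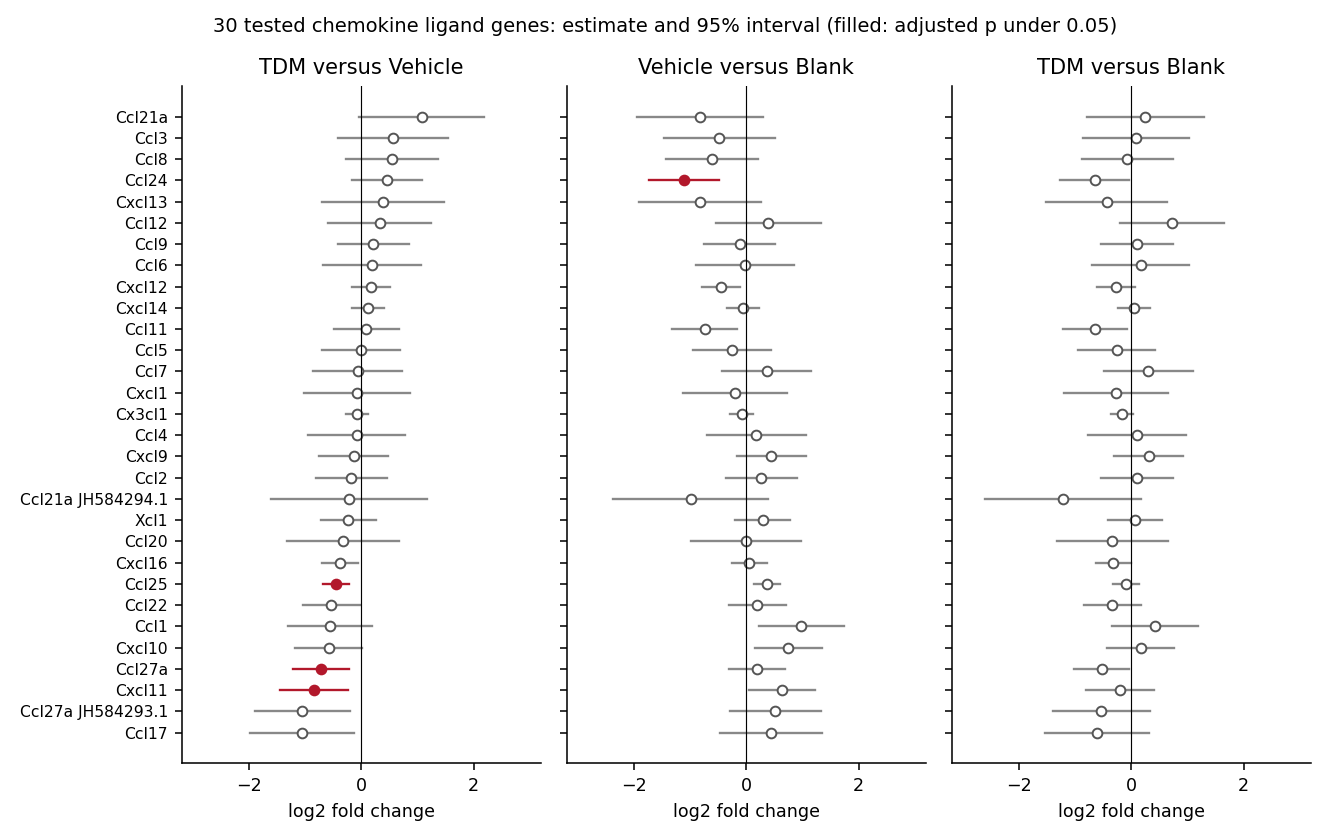
Log2 fold changes of the 30 tested chemokine ligand genes in the 3 comparisons, ordered by TDM versus Vehicle, with 95% intervals as lines; filled red points have an adjusted p under 0.05. There are 3 filled points in TDM versus Vehicle, 1 in Vehicle versus Blank and 0 in TDM versus Blank.

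The comparison of Vehicle with Blank asks what the solvent and its handling changed; it shares the Vehicle libraries with the comparison above. Of the 30 chemokine ligand genes 1 was lower and 0 were higher, 3.33% against 2.76% of all tested genes called in either direction and 1.86% called lower. At an unadjusted p under 0.05 there were 7, against 25.9% of all genes, and 0 separated the groups without overlap, against 0.128% of all. The 1 call was Ccl24 (eotaxin-2) at chr5:135569937-135573049 (minus strand, ENSMUSG00000004814), a Ccr3 ligand that attracts eosinophils. Its level was 6.28, 13.3 and 24.3 CPM in Blank and 2.16, 5.77 and 10.2 CPM in Vehicle (lowest, median and highest library). The groups overlapped between 6.28 and 10.2 CPM. The log2 fold change was -1.11 ± 0.30 (SE; adjusted p = 0.0447). TDM libraries lay between, at 2.30, 9.17 and 14.2 CPM.

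This call was close to the threshold. Ccl24 passed in 12 of the 27 fits that left out 1 library. It was lost without Blank 1, 4, 5, 6, 7, 8 or 9, without Vehicle 1, 2, 3, 6, 8 or 9, and without TDM 2 or TDM 8, with a log2 fold change between -1.22 and -0.98 and an adjusted p of up to 0.104. Over these fits the number of all genes called ran from 0 to 1289. It was also lost with voom (-0.85, adjusted p = 0.0852), without a filter on low counts (-1.12, adjusted p = 0.1005) and without Vehicle 7 and 8 (-1.11, adjusted p = 0.0719). With the muscle level as a covariate it had -0.92 (adjusted p = 0.172), in a fit that called 0 of all genes in this comparison. Ccl11 (eotaxin-1), the other eosinophil attractant, had a log2 fold change of -0.74 (adjusted p = 0.11), from 16.9, 28.9 and 56.7 CPM in Blank and 6.60, 17.1 and 33.1 CPM in Vehicle. Markers of mast cells had a median log2 fold change of -0.84 with 1 of 9 called lower (Hdc, which makes histamine), and those of macrophages had -0.64 with 0 of 12 called. The summed mast cell level was 318 to 725 CPM in Blank and 46.0 to 482 CPM in Vehicle, and the macrophage level 1299 to 4601 CPM and 491 to 3205 CPM. Suprabasal keratinocyte markers had a median of -1.62 with 4 of 8 called lower. Medians were also negative for fibroblasts (-0.81), lymphatic endothelium (-0.78) and neutrophils (-0.67), among others. They were positive for basal keratinocytes (0.25), hair follicle keratinocytes (0.89), skeletal muscle (0.45), intestinal epithelium (0.85) and red blood cells (0.41). The part of these cell types in the Ccl24 result was not tested.

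Ccl25 had a log2 fold change of 0.37 ± 0.11 (SE) in Vehicle against Blank and did not pass (adjusted p = 0.0619); it passed with DESeq2 (adjusted p = 0.0264) and without Blank 8, Vehicle 5 or Vehicle 7 (highest adjusted p 0.0466). Cxcl12 had -0.45 (adjusted p = 0.0966), from 218, 293 and 324 CPM in Blank to 99.4, 212 and 293 CPM in Vehicle, and passed without Vehicle 7 (adjusted p = 0.0471). Ccl1 had 0.98 (adjusted p = 0.109), Cxcl10 had 0.75 (adjusted p = 0.117) and Cxcl11 had 0.63 (adjusted p = 0.167). Cxcl11 passed without Blank 5 (log2 fold change 0.94, adjusted p = 0.0477), and Ccl1 was called higher in that fit too. Voom also called these 2 genes, both higher. Ccl8, Ccl6, Ccl9 and Cxcl14 had -0.62, -0.03, -0.12 and -0.07 (adjusted p = 0.318, 0.976, 0.832 and 0.786).

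In TDM against Blank, 0 of the 30 were called, against 16.2% of all tested genes called in either direction and 4.63% called lower, in a comparison that shares its libraries with both above. Groups without overlap were seen for 0 of the 30 and 2.18% of all. At an unadjusted p under 0.05 there were 4, against 29.7% of all genes: Ccl11, Ccl27a, Ccl24 and Cxcl16, each with a negative log2 fold change of -0.65, -0.53, -0.65 and -0.32 (adjusted p = 0.118, 0.137, 0.141 and 0.154). DESeq2 called 0 and voom with quality weights called 2, Ccl1 and Cxcl9, both higher, against 30.5% of all genes. With the muscle level as a covariate 4 were lower (Ccl11, Ccl22, Cxcl12 and the Ccl21a row of scaffold JH584294.1), against 18.7% of all genes called. A fit of the Blank and TDM libraries alone called 1, Cxcl16, lower, against 20.1% of all. The Ccl25 estimate was -0.09 with a 95% interval of -0.32 to 0.14, and that of Cxcl11 was -0.21 with -0.82 to 0.40.

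The authors' deposited table of comparisons gives an adjusted p for 40 chemokine ligand genes in TDM against Vehicle. At an adjusted p under 0.05, 5 were lower in TDM and 0 were higher. In the authors' deposited table these 5 were Ccl25, Ccl27a, Cxcl11, Ccl17 and the Ccl27a row of scaffold JH584293.1. For Vehicle against Blank the authors' deposited table gives 1 lower (Ccl24) and 1 higher (Ccl25) of 41. For TDM against Blank it gives 3 lower of 41 (Ccl27a, Cxcl16 and Ccl11). The share of all genes called in the authors' deposited table was not counted, so these counts have no background share here. In the edgeR fit made here 23.7%, 2.76% and 16.2% of all tested genes were called in these comparisons, in the order given. That fit is a separate test, and its shares are not the background of the authors' calls.

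Chemokine ligand genes varied more between libraries of a group than most genes did. The median within-group SD of log2 CPM was 0.74 over the 30 tested genes and 0.30 over all tested genes, and 28 of the 30 were above the latter. The standard error of a fold change was correspondingly wider, with a median of 0.32 against 0.14 in TDM versus Vehicle. The Ccl21a row of scaffold JH584294.1 had the highest SD, 1.91. Cx3cl1 at 0.20 and Ccl25 at 0.22 had the lowest, and were the 2 genes below the median of all genes. The comparison with all genes was not matched for level, and counting error adds to the SD of genes of few reads. Ccl4, with 225 reads over the 27 libraries, had an SD of 0.78, and Ccl8, with 113968, had 0.96.

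Part of this variation was shared with cell type markers and between ligands. Correlations were computed on the log2(CPM + 0.1) scale within each group of 9 libraries, for the 30 genes against the mean of 8 marker lists, 720 in all, with exact two-sided permutation tests adjusted over the 720. Of these 75 passed an adjusted p under 0.05 by Pearson's r and 11 by Spearman's rho. The points share library scaling and tissue makeup. A pair of measures passed in all 3 groups in 2 of 240 cases, both with Ccl8.

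Ccl8 went with the 9 fibroblast markers. Pearson's r was 0.87 in Blank, 0.97 in Vehicle and 0.96 in TDM (n = 9 each), with exact permutation p = 0.00173, 5.51e-05 and 3.86e-05 and a highest adjusted p of 0.0300. Spearman's rho was 0.92, 0.93 and 0.92 (exact permutation p = 0.00131, 0.00075 and 0.00131; adjusted 0.0608, 0.0491 and 0.0608). Without the 2 libraries farthest from the median of the marker level, r was 0.73, 0.95 and 0.81. With the 12 macrophage and monocyte markers r was 0.87, 0.91 and 0.91 (exact permutation p = 0.00391, 0.000689 and 0.00136; highest adjusted p 0.0440), and 0.75, 0.81 and 0.81 without the 2 farthest libraries. Spearman's rho with the macrophage markers was 0.72, 0.90 and 0.72 (exact permutation p = 0.0369, 0.00203 and 0.0369), which did not pass adjustment in any group. Of the fibroblast markers, 6 of 9 were higher in TDM than in Vehicle, with a median log2 fold change of 0.92 and summed levels of 3666 to 31585 CPM in Vehicle and 6051 to 49958 CPM in TDM. Their part in the Ccl8 values was not tested.

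Ccl6 and Ccl9, neighbours on chromosome 11 (83525778 to 83664683, a cluster that also holds Ccl3, Ccl4 and Ccl5, build GRCm38), were the pair of ligands most alike by mean r. Among 435 pairs of the 30 genes in 3 groups, 1305 correlations, 16 passed an adjusted p under 0.05 by Pearson's r. By that measure this pair was the 1 that passed in all 3 groups. Their r was 0.96 in Blank, 0.96 in Vehicle and 0.99 in TDM (n = 9 each; exact permutation p = 5.79e-05, 0.000187 and 2.76e-05; highest adjusted p 0.0349). Spearman's rho was 0.93, 0.88 and 0.97 (exact permutation p = 0.00075, 0.00308 and 0.000165), and r without the 2 farthest libraries was 0.92, 0.86 and 0.95. The adjusted permutation p of rho was 0.0575, 0.129 and 0.0308, so by rank the pair passed in TDM only. Ccl9 with the macrophage markers had an r of 0.82 to 0.95 over the 3 groups and Ccl6 one of 0.71 to 0.94, each passing in 2 groups.

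Cxcl9 and Cxcl10, in the chromosome 5 cluster that also holds Cxcl11 (92321347 to 92365485), had an r of 0.97 in Blank, 0.91 in Vehicle and 0.90 in TDM (n = 9 each; exact permutation p = 2.48e-05, 0.000573 and 0.00122; adjusted 0.0151, 0.0497 and 0.0636). Spearman's rho was 0.98, 0.93 and 0.95 (exact permutation p = 4.96e-05, 0.00075 and 0.000353), and r without the 2 farthest libraries was 0.89, 0.85 and 0.88. The adjusted permutation p of rho was 0.0308, 0.0575 and 0.0418. Cxcl10 shares 133 bases, 5.91% of its exon bases, with Art3, a gene with 60380 reads on the other strand. Art3 was lower in TDM than in Vehicle (log2 fold change -0.54, adjusted p = 0.0146), where Cxcl10 had -0.58. In Vehicle against Blank Art3 had 0.03 and Cxcl10 had 0.75. The part of Art3 reads in the Cxcl10 values was not tested. Ccl27a with the basal keratinocyte markers had an r of 0.66 to 0.90 over the 3 groups, passing in Vehicle only (r = 0.90, n = 9, exact permutation p = 0.00127, adjusted p = 0.0262), with 0.75 there without the 2 farthest libraries; no test compared the groups. Over the 31 pairs within the same genomic cluster the median of the mean r was 0.43, and over the 404 other pairs it was 0.21, given as a description since pairs share genes. Some pairs on different chromosomes also went together. Xcl1 (chromosome 1) and Cxcl11 (chromosome 5) had an r of 0.97, 0.77 and 0.89 in Blank, Vehicle and TDM. Their rho was 0.95, 0.93 and 0.97 (adjusted permutation p = 0.0418, 0.0575 and 0.0308). Cxcl12 and Ccl11 had an r of 0.84, 0.89 and 0.96, and Ccl8 and Cxcl12 one of 0.40, 0.91 and 0.93.

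**Figure D4:**
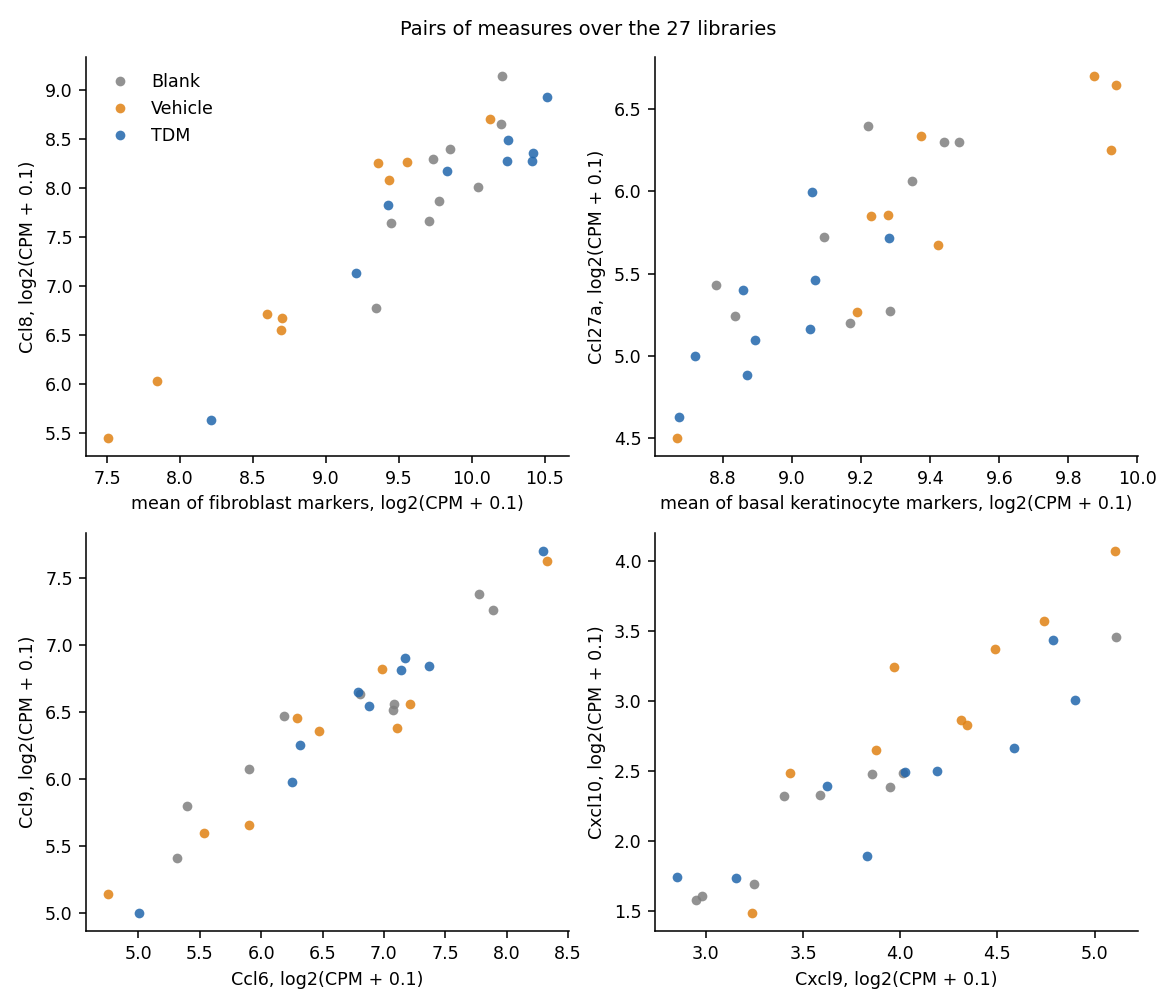
Pairs of measures over the 27 libraries on the log2(CPM + 0.1) scale, coloured by group: Ccl8 against the mean of the fibroblast markers, Ccl27a against the mean of the basal keratinocyte markers, Ccl9 against Ccl6 and Cxcl10 against Cxcl9. Ccl8, Ccl9 and Cxcl10 rise with their partner in each group, with r of 0.87 to 0.97, 0.96 to 0.99 and 0.90 to 0.97.

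Few receptors of these ligands were called. Of 19 conventional chemokine receptors 15 were tested; 1 was higher and 0 were lower in TDM than in Vehicle, and 0 were called in the other comparisons. Of all tested genes 12% were called higher and 11.7% lower in TDM than in Vehicle, and 4.63% lower in TDM than in Blank. The 1 was Cxcr4, the Cxcl12 receptor, with a mean of 13.6 ± 6.64 CPM in Vehicle and 22.3 ± 6.58 CPM in TDM (SD, n = 9 each) and a log2 fold change of 0.71 ± 0.25 (SE; adjusted p = 0.0397, edgeR). Receptors of the 3 lower ligands had log2 fold changes of 0.16 for Ccr9 (adjusted p = 0.761), 0.00 for Ccr10 (adjusted p = 0.998) and 0.36 for Cxcr3 (adjusted p = 0.312). Of the 5 atypical receptors, Ackr2, which scavenges inflammatory CC chemokines, was lower in TDM than in Blank with a log2 fold change of -0.45 (adjusted p = 0.0351), and 0 were called in the other comparisons. Among 10 tested upstream cytokine genes, Il33, an alarmin of epithelium, was lower in TDM than in Vehicle (-0.70, adjusted p = 0.000928), and 2 of 16 NF-kappaB pathway genes were lower, Nfkb2 (-0.25) and Tnip1 (-0.20), a share near that of all genes called lower. Of 6 tested genes that cleave or scavenge chemokines, Mmp2 (1.05) and Adam10 (0.28) were higher.

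The 12 genes with reads that missed the filter were Ccl19 with 267 reads over the 27 libraries, Cxcl2 with 241, Ccl27b with 230, the Ccl21c row of scaffold GL456350.1 with 228, Ccl28 with 74, Cxcl17 with 72, Cxcl3 with 25, Ccl26 with 14, Cxcl5 with 12, and 3 scaffold rows of Ccl21b, Ccl21c and Ccl27a with 6, 2 and 2. These levels are too low for a comparison. Of the neutrophil attractants Cxcl1, Cxcl2, Cxcl3 and Cxcl5 in the chromosome 5 cluster, Cxcl1 alone was tested, with 490 reads. Ccl19, a Ccr7 ligand, had 7.17 CPM in Blank 5 and a Blank median of 0.0607 CPM. Ccl28, a mucosal chemokine, had 1.28 CPM in Vehicle 3 and at most 0.305 CPM in Blank and 0.289 CPM in TDM; that library also had the highest Muc2. Chemokines under other symbols are not matched by the rule: Pf4 (Cxcl4), a platelet chemokine, had 30260 reads and was not called, and Ppbp had 98 reads and was not tested.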

How the data were processed

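RNA of 27 skin libraries, 9 per group, was made into libraries with a TruSeq RNA kit, per the labels. The authors deposited whole-number read counts per gene and FPKM values per gene and library, and tables of log2 fold changes and adjusted p-values. Bowtie 0.12.2 and mm9 are named in the submitters' processing notes; the deposited coordinates of all 45 members equal those of GENCODE M21 (GRCm38), which were used here. The FPKM denominators were 0.922 to 1.08 times the library's counted reads.

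From the deposited counts, edgeR 4.0.16 (R 4.3.3) fitted 1 quasi-likelihood model over all libraries, with TMM scaling and filterByExpr (minimum count 10), which kept 17232 genes with 99.86% of reads. Adjusted p under 0.05 was called. CPM values use the TMM-scaled library sizes. No 2 libraries of a group were copies (lowest chi-square per degree of freedom 8.03). The fit was first run on simulated counts, drawn gene by gene with the spread estimated from these data. That run had no shared differences in tissue makeup, so it does not measure error where libraries differ in makeup. limma 3.58.1, DESeq2 1.42.0, the deposited FPKM on a log2 scale with pseudocounts of 1 and 0.1, a replicate block and libraries left out were alternatives. Precision is limited by the number of libraries and, for genes of few reads, by counting error.

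Named are members called in any comparison and the 6 highest by FPKM; others are given by fold change or reads. The members and gene lists were chosen with earlier results of these data known. Labels state no batch.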

Additional observations from a re-analysis of the deposited data

Results flagged for a closer look

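Within each group of 9 libraries, the highest or lowest CPM of each tested gene was set against its nearest neighbour, and marked where that gap took up more of the group's range than Dixon's 95% critical value for 9 samples. Of 90 groups 18 were marked, all for a high library. Chance marks about 1 in 20 groups of independent, normally distributed values; CPM values are skewed and these genes are correlated, and the rate for such data was not measured.

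Blank 5 stood out for 5 genes. Its levels were 34.4 CPM of Cxcl9 (next library 16.1), 10.9 CPM of Cxcl10 (next 5.51), 3.59 CPM of Cxcl11 (next 1.80), 3.11 CPM of Ccl1 (next 1.497) and 1.23 CPM of the Ccl27a row of scaffold JH584293.1 (next 0.627). The first 3 are the interferon-induced Cxcr3 ligands.

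Vehicle 7 stood out for Ccl6 at 321 CPM (next 148), Ccl9 at 197 CPM (next 113) and the Ccl21a row of scaffold JH584294.1 at 37.0 CPM (next 18.7). TDM 8 stood out for the same myeloid pair, with 314 CPM of Ccl6 (next 165) and 208 CPM of Ccl9 (next 119.7).

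Vehicle 6 had 30.8 CPM of Ccl22 (next 16.6) and 5.47 CPM of Ccl1 (next 3.23). Vehicle 1 had 18.6 CPM of Cxcl13 (next 9.44) and 2.13 CPM of Cxcl1 (next 1.29). Vehicle 4 had 1.49 CPM of Ccl3 (next 0.689). Blank 6 had 33.9 CPM of Cxcl13 (next 14.2), Blank 2 had 5.75 CPM of Cxcl1 (next 0.914) and Blank 9 had 3.11 CPM of Ccl20 (next 1.41).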

How the results depend on the processing

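Counts of chemokine ligand genes called are given against 3 in TDM versus Vehicle, 1 in Vehicle versus Blank and 0 in TDM versus Blank, and counts of all genes against 4090, 475 and 2793. Without a filter on low counts they were 1, 0 and 0, and 2 genes of all were called in Vehicle versus Blank. DESeq2 called 2 in Vehicle versus Blank and 1386 of all genes. Voom with quality weights called 6, 2 (Ccl1 and Cxcl11, not Ccl24) and 2, and 6917, 226 and 5261 of all genes. A fit of only the groups compared called 1 in TDM versus Blank (Cxcl16). With the muscle covariate, which itself differed between TDM and Vehicle, the counts were 1, 0 and 4. Of all genes 223 and 0 were called in the first pair of comparisons. Of the alternatives chosen after seeing the data, leaving out Vehicle 3 gave 0 in Vehicle versus Blank and 0 of all genes. Leaving out Vehicle 7 and Vehicle 8 gave 8 of 33 tested in TDM versus Vehicle, against 32.2% of all genes. In Vehicle versus Blank that fit gave 0, with 84 of all genes. Leaving out 1 library at a time gave 1 to 6, 0 to 3 and 0 to 0, and 3074 to 5537, 0 to 1289 and 2307 to 3073 of all genes; 7 of the 27 fits called 0 genes in Vehicle versus Blank. In TDM versus Vehicle the count was 1 without Vehicle 2, TDM 4 or TDM 9. It was 5 of 31 without Vehicle 8 and 6 of 31 without Vehicle 7, against 25.1% and 31.9% of all genes. Deviations of same-numbered libraries had a correlation over 0.1 in 3, 4 and 4 of 9 pairs. The own number was best in 1, 3 and 3 of 9. No chance level was computed for this check, so it cannot decide whether the numbers pair the libraries. With the replicate block the counts were 3, 1 and 0, and 3946, 598 and 2621 of all genes. For the 10 named genes, 1110 values were computed under the alternatives (41 lost a call and 9 gained one); 31 had the opposite sign to the main value, 8 of them with the muscle covariate, and 0 of these were called in either fit. Counts of 9 to 69 reads limit Cxcl11.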
